A study of Mus musculus with 4 samples.

Results

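The Zscan4 family and Tmem92 are transcripts of the mouse 2-cell embryo that embryonic stem cells also produce. They were taken as every row of the deposited gene table whose symbol starts with Zscan4 or equals Tmem92. This gave 10 of 1593 listed genes: 9 Zscan4 copies, namely Zscan4a, Zscan4b, Zscan4c, Zscan4d, Zscan4e, Zscan4f, Zscan4-ps1, Zscan4-ps2 and Zscan4-ps3, and Tmem92. All 4 RNA sequencing libraries came from 46C cells, a clonal mouse embryonic stem cell line with a green fluorescent reporter at Sox1, a neural progenitor gene. Every culture was in serum and received the MEK inhibitor PD0325901 at 1 µM for 24 h. The PD group, with 2 libraries, received nothing else, and the PC group, also with 2 libraries, was additionally given the protein kinase D inhibitor CID755673, whose dose the sources used here do not state. The comparison asked which genes respond to CID755673 when MEK is already blocked.

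Zscan4 proteins carry a SCAN domain, through which such proteins pair, and zinc fingers that bind DNA. In the mouse embryo the genes are switched on at the 2-cell stage, when the embryo begins to transcribe its own genome, and in stem cell cultures they come on in bursts in a small share of cells at any time. They are known for telomere lengthening and genome stability. DUX, a double homeobox factor, is a known activator of this programme. Tmem92 encodes a small membrane protein whose transcript marks the same 2-cell-like cells. The libraries were made from bulk RNA, so fewer cells in that state and less RNA per cell cannot be told apart.

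The copies lay in 1 cluster. In GENCODE M21 (build GRCm38), matched by gene ID, the cluster spanned 819.9 kb at chr7:10794242-11614112, with 4 copies on the plus strand and 5 on the minus strand, each of 4 exons. The annotation holds 9 copies, and all 9 were in the deposited table. As background, the table holds 5.07% of the 31432 genes that the authors tested, and 3.12% of them as lower in PC. The copies share sequence, so their joint listing is not 9 separate events. Zscan4c, Zscan4d, Zscan4f, Zscan4-ps1, Zscan4-ps2 and Zscan4-ps3 had reading frames of 506 codons in GENCODE and Zscan4b and Zscan4e of 505 codons, while Zscan4a was annotated as a pseudogene without one. RefSeq (GRCm38.p6) instead classed Zscan4e and the 3 ps copies as pseudogenes as well. Tmem92 (ENSMUSG00000075610), with a longest frame of 162 codons, was at chr11:94777217-94782703 on the minus strand. No annotated exon of another gene overlapped an exon of the 10 genes.

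The transcripts were so alike that many reads could come from several copies. Over 36 pairs of copies, identity of the longest transcripts ranged from 96.6% for Zscan4b and Zscan4d to 99.8% for Zscan4f and Zscan4-ps2, with a median of 97.5%. The longest run common to all 9 copies, shown because a read inside it cannot be assigned, was 99 bases long. It covers positions 1611 to 1709 of the 2276-base Zscan4c transcript, in the coding part of exon 4 of 4, at chr7:11009882-11009980 on the plus strand (GRCm38, GENCODE M21).
Run common to 9 copies: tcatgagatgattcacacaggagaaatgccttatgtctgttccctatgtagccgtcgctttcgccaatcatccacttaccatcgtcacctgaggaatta

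Of all 50-base stretches of a copy's transcripts, between 9.88% for Zscan4b and 51.6% for Zscan4-ps1 occurred in no other annotated gene. At 150 bases the share ranged from 22.6% for Zscan4f to 87.4% for Zscan4-ps1, and Zscan4d was close to the top at 87.0%. Among the copies, Zscan4-ps1, Zscan4d and Zscan4a had the highest shares at 50 and at 150 bases. The lowest were Zscan4b, Zscan4e and Zscan4-ps2 at 50 bases, and Zscan4f, Zscan4e and Zscan4b at 150 bases. Tmem92 was distinct from the Zscan4 genes: 98.1% of its 50-base stretches, and all of its 100-base stretches, were its own. No source used here gives the read length or how reads that map to several copies were treated, so single-copy values are uncertain and the sum over copies is given beside them.

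**Figure D1:**
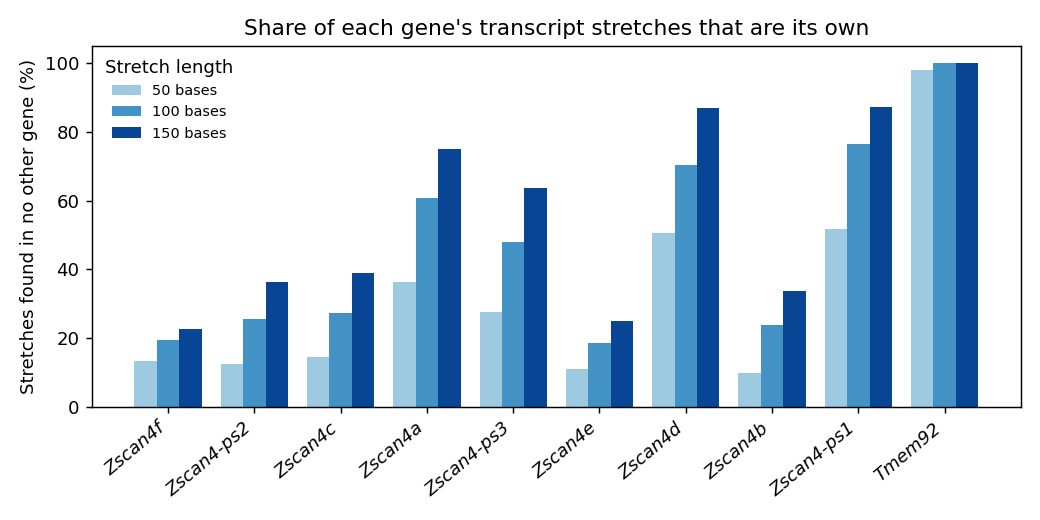
Share of all 50-, 100- and 150-base stretches of each gene's GENCODE M21 transcripts that occur in no other gene's transcript (percent, bars from 0). Tmem92 stands near 100% at each length, and the Zscan4 copies range from 9.88% to 51.6% at 50 bases.

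RefSeq promoter windows of 300 bases around the annotated start (GRCm38.p6) were matched by symbol for Zscan4b, Zscan4c, Zscan4d and Zscan4f. Within each, 130 bases around the TATA box are shown because copies that moved together can be compared there letter by letter. Capitals mark, first, a match to the DUX motif and, second, the TATA box letters TATAAA.
Zscan4b, chr7:10905052-10905181, minus strand: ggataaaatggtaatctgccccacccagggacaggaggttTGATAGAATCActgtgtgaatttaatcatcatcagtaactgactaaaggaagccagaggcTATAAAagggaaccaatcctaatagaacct
Zscan4c, chr7:11005591-11005720, plus strand: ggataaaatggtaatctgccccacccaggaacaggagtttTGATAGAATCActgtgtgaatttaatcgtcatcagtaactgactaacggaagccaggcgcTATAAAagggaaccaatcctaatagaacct
Zscan4d, chr7:11166184-11166313, minus strand: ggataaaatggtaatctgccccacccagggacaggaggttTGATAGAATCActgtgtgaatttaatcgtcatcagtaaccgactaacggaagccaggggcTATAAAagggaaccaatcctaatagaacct
Zscan4f, chr7:11397784-11397913, plus strand: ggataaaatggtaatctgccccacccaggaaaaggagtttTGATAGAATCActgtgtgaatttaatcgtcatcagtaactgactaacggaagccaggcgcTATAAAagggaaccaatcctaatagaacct

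Counted from 1 at the 5′ end, with the Zscan4c base first, Zscan4f differed from Zscan4c at 1 position (C32A), Zscan4d at 4 (A30G, T38G, T80C, C98G) and Zscan4b at 6 (A30G, T38G, G68A, C87A, G97A, C98G). None of these fell in the capitals. The DUX motif was searched on both strands as TGATT, any 2 bases, then ATCA. It matched 4 of the 4 Zscan4 windows, always as TGATAGAATCA at positions 41 to 51, which reads TGATTCTATCA on the other strand, 49 bases before the TATA box. Among all 32851 promoter windows of the same length, 68 (0.207%) held it. By gene, 66 of 27025 symbols had such a window. Of the listed genes, 966 had a promoter window, and those with the match were the 4 Zscan4 genes. The 4 windows are near-copies of each other, so this is closer to 1 observation than to 4. TATAAA was in all 4 Zscan4 windows and in 13.6% of all windows on either strand. The motif TGCACAC, given for ZSCAN4 itself, was in 4.40% of all windows and the E-box CACGTG in 7.15%, and neither was in these 4. A match describes letters only, and no binding was measured.

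With CID755673 every Zscan4 copy and Tmem92 had lower values. Summed over the 9 copies, the PD libraries had 2361 and 2232 normalized reads (reads divided by a size factor for each library) and the PC libraries 698 and 834, or 2296 ± 91.6 against 766 ± 96.4 (mean ± SD, n = 2 libraries each). The sum was 3.0 times as high in PD as in PC, a difference of -1.59 on the log2 scale, and the groups did not overlap. An exact two-sided permutation test of 2 libraries against 2 gave p = 0.333, the smallest value this design allows. Behind these sums stood 2435 recovered reads in each PD library, and 842 and 701 in the PC libraries.

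Both PC libraries lay under both PD libraries for 10 of the 10 genes. The same held for 61.5% of all listed genes, since the table was selected on this very comparison: each listed gene had an absolute log2 change of at least 1.00 and p of at most 0.0498 in the authors' test. The listing thus largely fixed the separation, and the sizes below describe members that had already passed it. In limma, a linear model that shares the spread across genes, p-values were adjusted by Benjamini-Hochberg over all 31432 genes tested, and every adjusted p here is of that kind. At an adjusted p under 0.05, 6 of the 10 fell: Tmem92, Zscan4a, Zscan4c, Zscan4f, Zscan4-ps2 and Zscan4-ps3. The fit called 31.1% of all listed genes, and 19.8% as lower, or 316 of the 980 listed as lower. The authors' deposited table gives all 10 a false discovery rate under 0.05, with values from 3.1e-15 for Zscan4f to 0.00043 for Zscan4e. It does so for 43.9% of all listed genes as lower, or 699 of the 980 listed in that direction. The median log2 change was -1.63 over the 10 genes, -1.17 over all listed genes and -1.53 over the listed genes that were lower. No limma call held when a library was left out (0 of 10 in each case, where 7 to 10 had an unadjusted p under 0.05) or without a trend in the prior for the spread (0 of 10 in limma, 10 unadjusted). With voom, limma's weighting of counts, 9 were called. Of all listed genes, 179 rose and 316 fell, which became 245 and 233 after scaling the libraries to equal table totals. That scaling moved the median log2 change by 0.29 and left 5 of the 10 called.

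**Figure D2:**
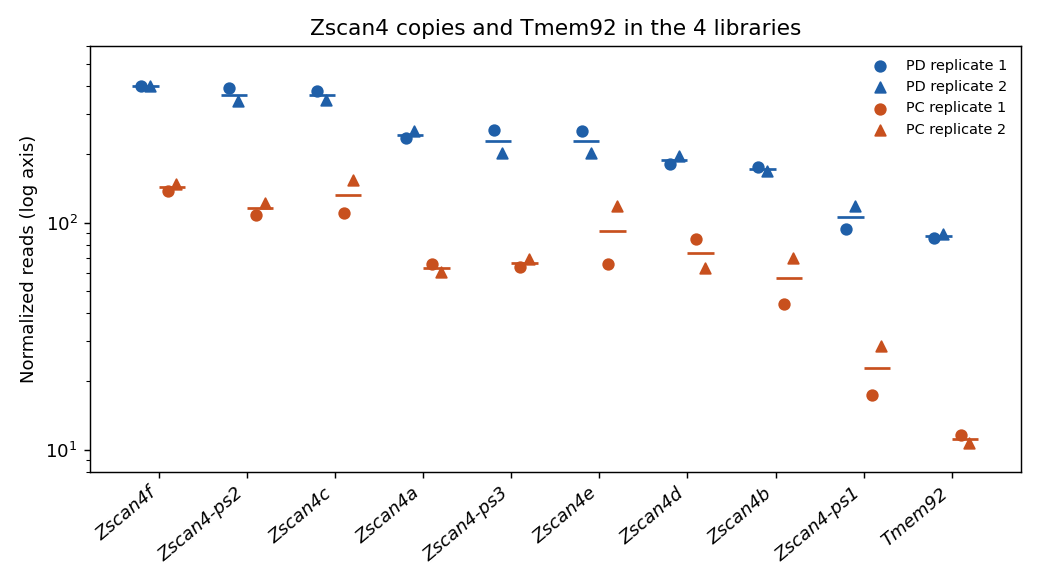
Normalized reads (log axis) of the 9 Zscan4 copies and Tmem92, ordered by their PD mean, with points for the 4 libraries and short lines for group means. The PC points of each gene lie under its PD points, and the gap is widest for Tmem92, from 85.3 and 88.9 to 11.6 and 10.7.

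Tmem92 had the widest gap of the 10. PD libraries had 85.3 and 88.9 normalized reads and PC libraries 11.6 and 10.7, so that libraries of a group lay close together. The PD mean was 7.81 times the PC mean, and the 4 possible pairs of libraries gave ratios from 7.36 to 8.30. Tmem92 fell by 2.86 on the log2(value + 1) scale (SE 0.31, limma adjusted p = 0.022). The PC values rest on 14 and 9 reads, whose exact 95% Poisson intervals run from 7.65 to 23.5 and from 4.12 to 17.1 reads and cover counting error only. Ordered from the largest fall, Tmem92 was at place 135 among the 1593 listed genes.

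Relative to the Zscan4 sum, Tmem92 was also lower in PC. Its normalized reads equalled 3.61% and 3.98% of the Zscan4 sum in PD, and 1.66% and 1.28% in PC. The groups did not overlap, and the log2 ratio of Tmem92 to the sum was lower by a difference of -1.38 (exact two-sided permutation test, p = 0.333, the smallest possible).

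Among the copies classed as protein coding in both annotations, Zscan4f and Zscan4c had the most reads. Zscan4f (ENSMUSG00000070828, chr7:11397915-11402318) was at 399 and 401 normalized reads in PD and 138 and 148 in PC. Its libraries agreed closely within each group, and the PD mean was 2.80 times the PC mean. The log2 change of Zscan4f, which fell, was -1.48 (SE 0.13, limma adjusted p = 0.014). Zscan4c (ENSMUSG00000054272, chr7:11005745-11010547), the copy described as predominant in embryonic stem cells, was at 379 and 348 in PD and 110.2 and 155 in PC. The PC libraries differed more, yet both stayed well under PD. Zscan4c fell by 1.47 (SE 0.20, limma adjusted p = 0.047), and was not called with a pseudocount of 0.1 or with equal table totals.

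Zscan4d and Zscan4b, also classed as protein coding in both annotations, were lower in PC without passing the test. Zscan4d (ENSMUSG00000090714, chr7:11161374-11166159), the copy that is the main transcript of 2-cell embryos, was at 180.4 and 196 normalized reads in PD and 84.5 and 63.0 in PC (log2 change -1.35, SE 0.21, limma adjusted p = 0.073). Zscan4b (ENSMUSG00000095339, chr7:10900740-10905050) was at 176 and 169 in PD and 43.9 and 70.2 in PC (log2 change -1.61, SE 0.28, limma adjusted p = 0.092). For both, the spread between the PC libraries was larger than for Zscan4f.

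Copies that RefSeq classed as pseudogenes showed the same direction. Zscan4a (ENSMUSG00000110097, chr7:10794242-10799057), the pseudogene in both annotations, was at 235 and 253 normalized reads in PD and 65.4 and 60.7 in PC. It fell by 1.93 (SE 0.17, limma adjusted p = 0.014), to 25.9% of its PD mean. Zscan4-ps2 (ENSMUSG00000110190, chr7:11514310-11519111) fell from 391 and 342 to 109 and 123 (log2 change -1.66, SE 0.15, limma adjusted p = 0.015). Zscan4-ps3 (ENSMUSG00000109969, chr7:11609308-11614112) fell from 256 and 202 to 63.8 and 69.0 (log2 change -1.76, SE 0.20, limma adjusted p = 0.024). A transcript counted at these loci need not come from them, given the shared stretches above.

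By the ratio of group means, Zscan4-ps1 and Zscan4e had the widest and the narrowest gap among the 9 copies, while by log2 change Zscan4d, at -1.35, was as narrow as Zscan4e, at -1.36. Zscan4-ps1 (ENSMUSG00000110103, chr7:11065139-11069691), the most distinct in sequence, was at 94.1 and 118 normalized reads in PD and 17.4 and 28.6 in PC, a PD mean 4.62 times the PC mean. It did not pass (log2 change -2.19, SE 0.35, limma adjusted p = 0.074), with 21 and 24 reads in the PC libraries. Zscan4e (ENSMUSG00000095936, chr7:11306378-11310682) was at 252 and 203 in PD and at 65.4 and 118 in PC, a PD mean 2.49 times the PC mean. It had the highest adjusted p of the 10 (log2 change -1.36, SE 0.32, limma adjusted p = 0.24).

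Per kilobase of the longest transcript, Zscan4f had the highest level in PD, at 218 ± 0.759 normalized reads per kb, and Tmem92 the lowest, at 42.6 ± 1.23. Between them in PD came Zscan4-ps2, Zscan4c, Zscan4e, Zscan4a, Zscan4-ps3, Zscan4b, Zscan4d and Zscan4-ps1. The neighbours Zscan4-ps2 and Zscan4c, Zscan4a and Zscan4-ps3, and Zscan4-ps3 and Zscan4b overlapped between libraries, so 3 of the 9 neighbouring pairs had no clear order. In PC, Zscan4f was again highest, at 78.1 ± 3.54 per kb, and Tmem92 lowest, at 5.46 ± 0.309, and 5 of 9 neighbouring pairs overlapped. These per-length levels carry the uncertainty of shared reads and of annotated ends, which give Zscan4f a transcript of 1829 bases and Zscan4c one of 2276.

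Most copies had overlapping shares of the Zscan4 reads in PC and PD while the total was lower. Zscan4f held 16.9% and 17.9% of the family's reads in PD and 19.8% and 17.7% in PC. For 7 of the 9 copies the shares in PC and PD overlapped. With 2 libraries against 2, a share without any difference fails to overlap with a probability of 0.333. How reads shared between copies were assigned is unknown, so overlap does not show that the make-up was kept. Zscan4a and Zscan4-ps1 did not overlap: Zscan4a held 9.94% and 11.3% in PD and 9.38% and 7.28% in PC, and Zscan4-ps1 held 3.98% and 5.30% in PD and 2.49% and 3.42% in PC. The difference in the mean share of Zscan4a was the widest with all libraries, at -2.31 percentage points, and the exact permutation test cannot fall under p = 0.333 for any copy. That order rested on single libraries: without PC replicate 1 the widest difference was in Zscan4e, higher in PC by 4.23 points, and without PC replicate 2 in Zscan4d, higher in PC by 3.90 points.

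For 2 of the 9 copies the 95% intervals of the share did not overlap between the PC libraries. Zscan4e held 9.38% of Zscan4 reads in PC replicate 1 (Wilson 95% interval 7.59% to 11.5%) and 14.1% in PC replicate 2 (11.7% to 16.9%). Zscan4d went the other way, with 12.1% (10.1% to 14.5%) in PC replicate 1 and 7.56% (5.83% to 9.76%) in PC replicate 2. These intervals cover counting error only, and not the unknown assignment of reads shared between copies. In normalized reads, 7 of the 9 copies were higher in PC replicate 2 than in PC replicate 1, and Zscan4a and Zscan4d were lower. The ratio of PC replicate 1 to PC replicate 2 was 0.56 for Zscan4e and 1.34 for Zscan4d. It was also 0.61 for Zscan4-ps1, 0.63 for Zscan4b and 0.71 for Zscan4c. In PD, 4 copies were higher in replicate 2 and 5 lower.

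**Figure D3:**
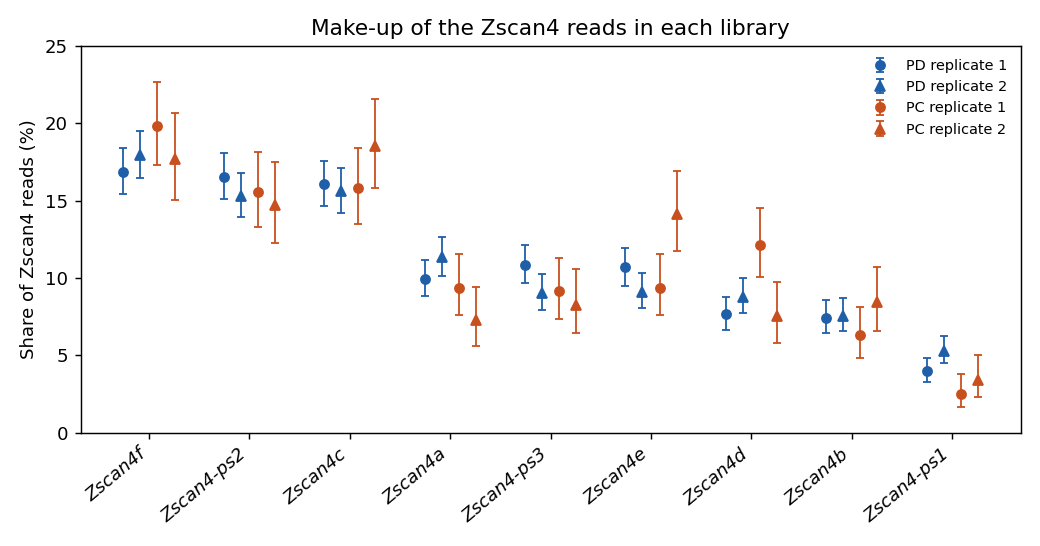
Share of each copy among all Zscan4 reads (percent) in each of the 4 libraries, with Wilson 95% intervals for counting error. Shares in PC and PD overlap for 7 of 9 copies, and the intervals of Zscan4e and of Zscan4d do not overlap between the PC libraries.

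Other transcripts of the 2-cell-stage programme were also lower where listed. Of 37 symbols of the programme 16 were listed, 7 of them described above, where 5.07% of all tested genes are listed and 3.12% as lower. All 16 had lower values in PC, against 61.5% of listed genes. In limma, 5 of the 16 fell, against 19.8% of all listed genes, or 316 of the 980 listed as lower. The median log2 change was -1.47 over the 16 and -1.53 over the genes listed as lower. No limma call of the 16 held without any one library (0 of 16, where 8 to 14 had an unadjusted p under 0.05) or without the trend in the prior (0 of 16, 15 unadjusted), while voom called 8. Of the 30 symbols besides the Zscan4 genes and Tmem92, 9 were listed, where 5.07% of all tested genes are, and 1 fell. The authors' deposited table puts 5 of the 9 under a false discovery rate of 0.05. It does so for 43.9% of all listed genes as lower, or 699 of the 980 listed in that direction. Their median log2 change was -1.45. Several of these are also near-identical copies.

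Gm5662, a 2-cell-stage gene of a multicopy family, was the one that fell. It was at 293 and 285 normalized reads in PD and 104 and 107 in PC, with little spread in either group (log2 change -1.45, SE 0.14, limma adjusted p = 0.017). Its relative Gm8300 was at 111 and 75.2 in PD and 39.8 and 23.8 in PC without passing (limma adjusted p = 0.27). Of the Usp17l genes, which encode deubiquitinating enzymes, Usp17le was at 155 and 132 in PD and 44.7 and 63.0 in PC. Usp17lc was at 71.8 and 51.3 in PD and 17.4 and 36.9 in PC. Usp17ld was at 29.1 and 62.3 in PD and 18.2 and 13.1 in PC. The Usp17l groups did not overlap, as held for all 980 genes listed as lower. None of the 3 passed, with adjusted p from 0.11 to 0.88 (limma, Benjamini-Hochberg).

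Arg2, a mitochondrial arginase, was at 88.2 and 77.9 normalized reads in PD and 24.9 and 33.3 in PC (limma adjusted p = 0.14). Gm20767 was at 65.0 and 71.5 in PD and 22.4 and 19.0 in PC, and Gm13119 at 51.4 and 62.3 in PD and 20.7 and 33.3 in PC. BC080695 rested on 12 and 17 reads in PD and 3 and 0 in PC. None of these 4 passed. Their values lay in PC under those in PD for each library, as for every gene listed as lower.

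Known regulators of the programme were looked up as well, against the 5.07% of all tested genes that are listed. Of 6 activator symbols, Dux, Dppa2 and Dppa4 among them, 0 were listed, and none is analysed here. Of 20 repressors, 1 was listed: Lin28a, an RNA-binding protein that takes part in silencing Dux in stem cells, was at 8337 and 8075 normalized reads in PD and 3902 and 3659 in PC (log2 change -1.12, SE 0.08, limma adjusted p = 0.014). That 1 of 20 is near the 5.07% of all tested genes, and a link between Lin28a and the Zscan4 values was not tested. No other gene named with the SCAN prefix Zscan or Zkscan was listed.

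Zscan4 is known to raise telomere recombination together with meiotic recombination genes. Of 16 telomere and recombination genes 2 were listed, where 5.07% of all tested genes are. Both rose, as did 11.2% of all listed genes, or 179 of the 613 listed as higher. Dmc1, the meiotic recombinase, rose from 472 and 500.4 normalized reads in PD to 1200.5 and 1167 in PC (log2 change 1.28, SE 0.10, limma adjusted p = 0.014). Rec8, the meiotic cohesin subunit, rose from 3394 and 3163 to 12749 and 13345 (log2 change 1.99, SE 0.08, limma adjusted p = 0.011). Tert, Terf1, Spo11 and the other members are not analysed here.

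**Figure D4:**
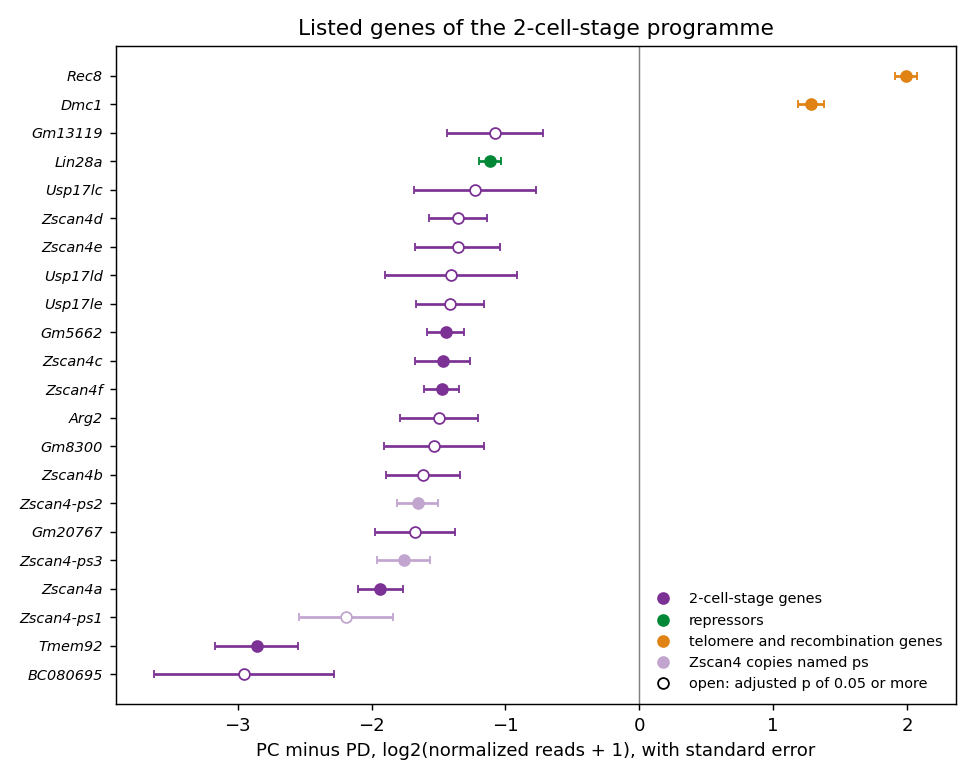
Difference PC minus PD in log2(normalized reads + 1) with its standard error for the listed genes of the 2-cell-stage list, the 3 ps copies, and the listed repressor, telomere and recombination genes. Filled points passed limma at an adjusted p under 0.05 and open points did not; the Zscan4 copies, Tmem92 and Lin28a lie left of 0, and Dmc1 and Rec8 right of it.

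Within the Zscan4 cluster GENCODE M21 holds 44 other genes, 0 of them protein coding, and 1 was listed, where 5.07% of all tested genes are. This was Gm45598, a transcribed unprocessed pseudogene at chr7:11380620-11387584 on the minus strand, named after its values were seen. It was at 37.8 and 18.3 normalized reads in PD and 49.7 and 74.9 in PC, higher in PC without passing (limma adjusted p = 0.998). None of the 5 nearest protein-coding genes on either side of Tmem92 was listed. Gm11543, which was in none of the lists, is an unprocessed pseudogene at chr11:94828186-94828930 on the minus strand. It shares 50-base stretches with Tmem92 and was at 12.6 and 11.9 normalized reads in PD, from 13 reads in each library. It had 0 reads with CID755673 in either library and fell (log2 change -3.73, SE 0.33, limma adjusted p = 0.014). Against a floor of 3 reads per library it was at least 4.05-fold lower, counting error aside.

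The 5 other listed genes whose centred log2 values over the 4 libraries lay nearest to the mean profile of the 10 genes were Rassf9, D630039A03Rik, Gm43237, Col6a4 and Gm11841, at Euclidean distances from 0.08 to 0.16. Zscan4-ps2 was the nearest of the 10 genes themselves, at 0.16, and Tmem92 the farthest, at 1.12. Col6a4, a collagen VI chain, was at 855 and 881 normalized reads in PD and 257 and 271 in PC. With 4 libraries in 2 groups such likeness mostly reflects a similar size of change.

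Markers of the labelled cell type and of other cell types were looked up in the table, which lists 5.07% of all tested genes. Of 6 embryonic stem cell markers 0 were listed, so the label could not be checked here. Of 5 extra-embryonic endoderm markers 2 were listed, Gata6 and Sox17, with a summed level of 209.9 to 221 normalized reads in PD and 466 to 512 in PC. Of 5 trophoblast markers Gata3 was listed, at 380.1 to 384 in PD and 133 to 195 in PC, and of 5 fibroblast markers Col3a1, at 89.2 to 114 in PD and 38.9 to 48.8 in PC. Their part in the Zscan4 and Tmem92 values was not tested.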

How the data were processed

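Gene expression was measured by RNA sequencing of total RNA from 2 PD and 2 PC libraries, grouped by the titles in the labels. The authors deposited log2 values per library, with p-values and false discovery rates of their own test. Undoing the log and subtracting 1 gave whole multiples of 1 step per library for 100.0% of values (tolerance 0.001 reads), so reads and size factors, 0.841 to 1.21, were recovered. Bowtie 0.12.2 and build mm9 are named in the submitters' processing notes. The coordinates given here are of GRCm38, a later build in which the gene IDs were matched, and that difference was not resolved. The sources used here do not give the counting, annotation, normalization or test. The table holds 1593 selected genes with 433684 to 683777 reads per library, which is not the full depth.

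The main test was limma 3.58.1 (R 4.3.3) on log2(value + 1), with a trended prior and no replicate block, over genes with a mean of at least 1 normalized read. Benjamini-Hochberg adjustment counted the unlisted of 31432 tested genes as having larger p-values, which leans towards fewer calls. A spread estimated from selected genes can lean towards more. The procedure was tested on simulated data. No label says that a group's libraries came from separate cultures, so p-values may measure technical spread only. Alternatives were another filter, pseudocounts, prior, scaling, voom, a replicate block, other adjustments and leaving out each library. Identities were computed with Biopython 1.88. The genes named are all Zscan4 rows, Tmem92, listed members of the 2-cell-stage, activator, repressor, telomere and marker lists, and the 5 nearest profiles. The members and lists were chosen with earlier results of these data known.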

Additional observations from a re-analysis of the deposited data

How the results depend on the processing

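Each of the 10 genes kept its direction in all 130 values computed under other settings, which the selection of the table nearly fixes, and the filter, the prior, the block and the adjustments leave a log2 change as it is. Of these values 75 stayed on their side of the threshold, 38 lost the call and 17 gained one. Without a trend in the prior, limma called 1 gene in all, 0 of the 10 (adjusted p from 0.067 to 0.54, with 10 at an unadjusted p under 0.05) and 0 of the 2-cell-stage list (15 unadjusted), while voom called 9 of the 10 and 8 of the list. At an adjusted p under 0.01 the counts were 2, 0 and 0. With adjustment over the listed genes alone they were 1536, 10 and 16. With each library left out in turn limma called 33 to 61 genes, 0 to 0 of the 10 and 0 to 0 of the list, with 7 to 10 and 8 to 14 at an unadjusted p under 0.05. Each lone library is then assumed to vary like the other group. With the replicate block the counts were 1176, 10 and 13. Same-numbered libraries showed no shared deviation from their group means (correlation -0.002 across 1452 listed genes). That does not settle whether they were prepared in pairs, which no label states. With equal table totals the median log2 change moved by 0.29, calls went from 179 higher and 316 lower to 245 and 233, and the log2 change of the Zscan4 sum became -1.30. Leaving out a library moved the sum between -1.72 and -1.46, Tmem92 relative to it between -1.56 and -1.19, and the largest change in a copy's share between 2.20 and 4.23 percentage points, against 2.31 with all libraries. The cause of these changes was not tested. The full depth is unknown, and 9 to 437 reads stood behind each value of the 10 genes.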

Other observations

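Genes of other families tied to the 2-cell-like state were found in the table after its values were seen, and were in none of the lists. Trim43b, a tripartite motif gene, was at 117 and 117 normalized reads in PD and 38.9 and 36.9 in PC, a log2 change of -1.61 (SE 0.22, limma adjusted p = 0.046). The double homeobox genes Duxbl1, Duxbl2 and Duxbl3, near-identical copies whose reads may be shared, had lower values in PC without passing. Duxbl2 was at 159 and 141 in PD and 63.8 and 41.6 in PC (limma adjusted p = 0.11). Duxbl1 was at 136 and 115 in PD and 51.4 and 29.7 in PC, and Duxbl3 at 152 and 137 in PD and 58.8 and 42.8 in PC. For the 3 Duxbl genes PC replicate 1 was higher than PC replicate 2, which was the case for 2 of the 9 Zscan4 copies.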
